A study of Mus musculus with 8 samples.

Results

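The nuclear-encoded genes of oxidative phosphorylation were taken as all protein-coding genes of GENCODE release M21 whose symbols begin with Nduf, Sdha to Sdhd, Uqcr, Cox followed by a digit, or Atp5. This gave 107 gene records with 106 symbols, of 21938 protein-coding genes in all, because Atp5o has 2 records. The rule used names and no measured value. CAGE-seq, which sequences the capped 5′ ends of RNA and so places transcription start sites (TSSs), had been run on nuclear RNA of mouse embryonic stem cells (mESCs). E14, the wild-type line, had 3 libraries. Pwwp2a/b double knockout (DKO) clone A1 had 2 libraries and DKO clone C7 had 3. The DKO cells lack both Pwwp2a and Pwwp2b, each DKO line is 1 clone, and all 3 lines were cultured with serum and leukaemia inhibitory factor on gelatine. PWWP2A and PWWP2B are readers of histone H3 lysine methylation that bring a histone deacetylase complex to chromatin.

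Oxidative phosphorylation passes electrons from NADH and succinate through complexes I, II, III and IV of the inner mitochondrial membrane to oxygen, and the proton gradient made on the way drives the ATP synthase. Most subunits and all assembly factors of these complexes are encoded in the nucleus, translated in the cytosol and imported. Embryonic stem cells draw much of their ATP from glycolysis yet hold a working respiratory chain. The promoters of such genes are known for lacking a TATA box, lying in CpG islands and carrying sites for ETS factors such as GABP, for NRF1 and for YY1.

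The data analysed here were tag clusters, which are runs of nearby TSSs on 1 strand. E14 had 32857 of them, A1 33005 and C7 32870. Each cluster has a dominant TSS, the base with most tags, and an interquantile region, which spans quantiles 0.1 to 0.9 of its tags and measures promoter width. In the cluster table the libraries of a line had been merged and all scores were 0. It therefore gave no expression value, no replicate error and no test between lines. All intervals below are 95% intervals that cover counting error only, and differences between lines are descriptions of 1 track each. A gene's main start cluster was the one with the widest interquantile region among those whose dominant TSS lay within 500 bp of the start of the gene's principal transcript.

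All 8 embryonic stem cell markers examined (Pou5f1, Nanog, Sox2, Zfp42, Klf4, Esrrb, Tdgf1 and Dppa5a) had a main start cluster in each line. Of 10 markers of other cells, the same 3 had one in every line, namely the fibroblast genes Col1a1, Col1a2 and Thy1. The endoderm genes Gata6, Gata4 and Sox17, the mesoderm genes T and Mesp1 and the neural genes Pax6 and Neurog2 had none. Pwwp2a had a main start cluster in E14 and in both DKO clones, and Pwwp2b had no cluster in any line. A start cluster may lie outside the deleted part of a gene, so these positions do not check the knockouts.

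A main start cluster was present for 98 of the 107 members in each line (91.6%, Wilson interval 84.8 to 95.5). Over all protein-coding genes in E14 the share was 47.0%, or 10313 of 21938. With starts of other annotated transcripts of the same gene included, 102 members (95.3%) had a start cluster. Cox4i2, Cox8b and Cox8c, which encode alternative isoforms of complex IV subunits made mainly in lung, muscle or testis, had no cluster in any line. The muscle isoforms Cox6a2 and Cox7a1 and the testis isoforms Cox6b2 and Cox7b2 did have start clusters in all 3 lines. Their interquantile widths were 12 bp for Cox6a2, 25 bp for Cox7a1 and 24 bp for Cox7b2 in every line. A cluster shows that capped RNA began there and gives no level.

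For 6 members no cluster had its dominant TSS within 500 bp of the principal transcript's start, while the gene had clusters elsewhere. Atp5d (the delta subunit of the ATP synthase stalk), Atp5f1 (its peripheral stalk), Atp5j2 (its membrane part) and Ndufs5 (a complex I subunit) had clusters at other annotated starts. The dominant TSS of Ndufs5 lay upstream of the principal start, at -1855 bp in E14, -1858 bp in A1 and -1860 bp in C7. The dominant TSS of Atp5d was 31 bp from the RefSeq start of the gene, and that of Atp5j2 was at the RefSeq start. Ndufa13 (a complex I subunit) and Sdhaf1 (an assembly factor of complex II) had a cluster in the annotated 5′ UTR, 919 and 1536 bp downstream of the principal start. Ndufa13 had a further cluster in coding sequence, 1009 bp from that start. The Sdhaf1 cluster lay 16 bp from the RefSeq start, with an interquantile width of 38 bp in all 3 lines.

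The main start clusters of members had a median interquantile width of 31 bp in E14 (interval 25 to 38, quartiles 20 and 44), 31 bp in A1 and 33 bp in C7. All protein-coding genes with a main start cluster had a median of 32 bp in E14. Measured over the whole cluster, the members' median was 75.5 bp (interval 65 to 89) against 56 bp for all protein-coding genes, 63.5 bp for mitochondrial and 74 bp for cytosolic ribosomal protein genes. Sharp promoters, of at most 10 bp, were 3 of 98 members in E14 (3.06%, interval 1.05 to 8.62), against 14.6% of all protein-coding genes. They were 4 in A1 and 5 in C7. With a limit of 20 bp the E14 shares were 27.6% and 28.3%. Taking the widest cluster leaves narrower ones out. In E14, 33 of 98 members (33.7%, background 31.1%) had more than 1 cluster at the principal start. By the cluster nearest that start, Cox5b, Cox6b2, Cox6c, Cox7b2, Ndufb3, Ndufb5 and Ndufv1 were also sharp in E14, with 2 to 8 bp. The share of all protein-coding genes by that choice was not counted. The dominant TSS of the widest cluster lay in an exon downstream of the start codon in 3 members. They were Cox6a1, Cox7c, whose cluster spans that codon, and 1 of the Atp5o records. In Cox6b2 the dominant TSS lay in an intron of the principal transcript, also downstream of the start codon. Among genes for cytosolic ribosomal proteins, another large set of housekeeping genes, 33 of 92 were sharp (35.9%) and the median was 22.5 bp. Among genes for mitochondrial ribosomal proteins, 1 of 76 was sharp and the median was 25.5 bp.

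By role, the E14 median width was 31 bp for the 34 complex I subunits with a main start cluster and 28 bp for 8 complex I assembly factors. It was 21.5 bp for the 4 complex II subunits, 41.5 bp for the 8 complex III subunits, 42 bp for 11 complex IV subunits, 32.5 bp for 10 complex IV assembly factors and 30 bp for 15 ATP synthase genes. Groups this small overlapped widely. Complex II subunits ran from 19 to 35 bp, complex III subunits from 15 to 51 bp and complex IV subunits from 11 to 70 bp.

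**Figure D1:**
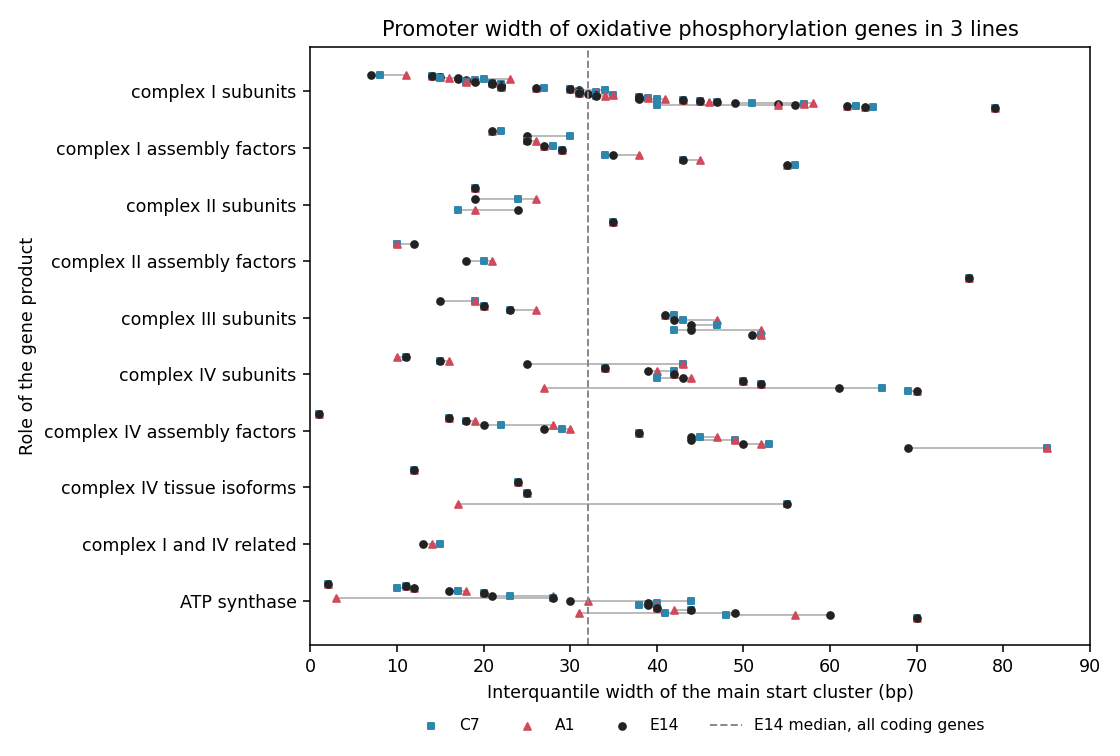
Interquantile width in bp (x axis) of each member's E14 main start cluster and of the overlapping A1 and C7 clusters, with genes grouped by role (y axis). Each row of linked points is 1 gene, circles are E14, triangles A1 and squares C7, and the dashed line is the E14 median of all protein-coding genes at 32 bp. Most genes have their 3 points close together, while Cox6a1 (25, 43 and 43 bp), Cox7c (61, 27 and 66 bp) and Cox6b2 (55, 17 and 55 bp) have long links.

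Within complex I, which oxidizes NADH, Ndufb7, an accessory subunit of the membrane arm, had the widest promoter of all members in E14. In both clones Cox14, with 85 bp, was wider. Its main start cluster at chr8:83566702-83566826 of mm10, plus strand, had an interquantile width of 79 bp in each line. At the other end, Ndufa9, an accessory subunit near the quinone site, had 7 bp in E14, 11 bp in A1 and 8 bp in C7. The core subunit genes lay between them. Ndufv1, which encodes the subunit that binds NADH and FMN, had 49 bp in E14, 58 bp in A1 and 51 bp in C7. Ndufs1, the largest iron-sulfur subunit, had 31 bp in each line. Ndufs7, which lies near the quinone site, had 15 bp in each line.

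Complex II, succinate dehydrogenase, also serves the citric acid cycle. Sdha (the flavoprotein) had a width of 19 bp in each line and Sdhb (the iron-sulfur protein) 35 bp in each line. The membrane anchors differed more between lines. Sdhc had 24 bp in E14, 19 bp in A1 and 17 bp in C7, and Sdhd had 19, 26 and 24 bp. Sdhaf2, which helps attach FAD to SDHA, had the second widest promoter of all members in E14, with 76 bp in each line. In complex III, Uqcrc1 (a core protein) had 23, 26 and 23 bp in E14, A1 and C7, Uqcrfs1 (the Rieske iron-sulfur protein) 51, 52 and 52 bp, and Uqcrh (the hinge protein) 44, 52 and 42 bp.

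In complex IV, cytochrome c oxidase, Cox5a had a width of 70 bp in E14 and A1 and 69 bp in C7, and Cox4i1 50 bp in each line. Cox8a had 42 bp in each line, and Cox7a2 had 39, 40 and 42 bp. Ndufa4, named for complex I but now placed in complex IV, had 34 bp in each line. Cox10, which makes haem O for the enzyme, had 18, 19 and 18 bp, and Cox14, an assembly factor, 69 bp in E14 and 85 bp in both clones. Cox6c was narrow, with 11 bp in E14 and C7 and 10 bp in A1. Cox7a2l, a factor that links complexes III and IV into supercomplexes, had the narrowest promoter of all members, at 1 bp in each line.

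Of the ATP synthase genes, Atp5a1 and Atp5b, which encode the alpha and beta subunits of the catalytic head, had narrow promoters. Atp5a1 had 11 bp in each line, and Atp5b had 12 bp in E14 and A1 and 10 bp in C7. Atp5c1, the central stalk, had 60, 56 and 48 bp. The 3 genes for the c subunit of the membrane ring differed from each other, with 70 bp for Atp5g1 in each line, 39 to 40 bp for Atp5g2, and 28, 3 and 28 bp for the widest E14 cluster of Atp5g3 and its overlapping clusters. The second narrowest width among members, 2 bp in each line, belonged to an Atp5o record (ENSMUSG00000116933) that runs on through the starts of Donson and Cryzl1. That cluster lies in coding sequence of the ordinary Atp5o record (ENSMUSG00000022956), whose own main start cluster had 40 bp in each line.

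Reference sequence covered the dominant TSS of 92 of the 98 main start clusters in E14. The base step across the TSS, from position -1 to +1, was pyrimidine then purine in 74 of them (80.4%, interval 71.2 to 87.3), against 83.1% of all protein-coding genes. CA was the most frequent step, in 27 members (29.3%), followed by CG in 21 (22.8%), TG in 16 and TA in 10. A start at C followed by 4 or more pyrimidines, the terminal oligopyrimidine form known from translation machinery genes, was found in 4 of 95 members (4.21%, interval 1.65 to 10.3). The share was 3.14% of all protein-coding genes and 48.2% of cytosolic ribosomal protein genes. The windows below show the initiators of narrow and wide promoters, from GENCODE transcripts and RefSeq promoters on the GRCm38 assembly, with the bases at -1 and +1 in capitals.
Cox7a2l: aaggggaagccgggTCcttttctagggcgg
Ndufb7: agacactgaaggggCAgtgcttccaggtgg
Cox5a: agcgtgcgtcgctgCGtgagtccggccccc
Ndufa9: caccggccgtgaggCAttgtgggagaagat
Cox7a2l lies at chr17:83514316-83514345 on the minus strand and starts at a C within a run of pyrimidines. Ndufb7 lies at chr8:83566743-83566772 on the plus strand, Cox5a at chr9:57521225-57521254 on the plus strand and Ndufa9 at chr6:126849111-126849140 on the minus strand. The latter 3 have a pyrimidine-purine step.

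Leaders were short. From the E14 dominant TSS to the start codon of the principal transcript, members had a median of 35 bases (interval 28 to 54, quartiles 19.5 and 70, n = 94), against 122 bases for all protein-coding genes (n = 10004). A leader of at most 50 bases was found in 53 members (56.4%, interval 46.3 to 66.0) and in 22.2% of all protein-coding genes. Mitochondrial and cytosolic ribosomal protein genes were similarly short, with medians of 28 and 39.5 bases. Complex I subunits had a median of 25.5 bases (n = 34), complex I assembly factors 28.5 (n = 8), complex II subunits 29 (n = 4), ATP synthase genes 52.5 (n = 14), complex III subunits 54.5 (n = 8) and complex IV subunits 85 (n = 9). The shortest was that of Ndufb8, a complex I subunit, with 4 bases, and the longest that of Cox6c, with 749 bases. The dominant TSS of Cox6c lay upstream of the principal transcript's start, at -375 bp, so part of its value is genomic distance outside that transcript. A further cluster of the gene was at -515 bp.

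**Figure D2:**
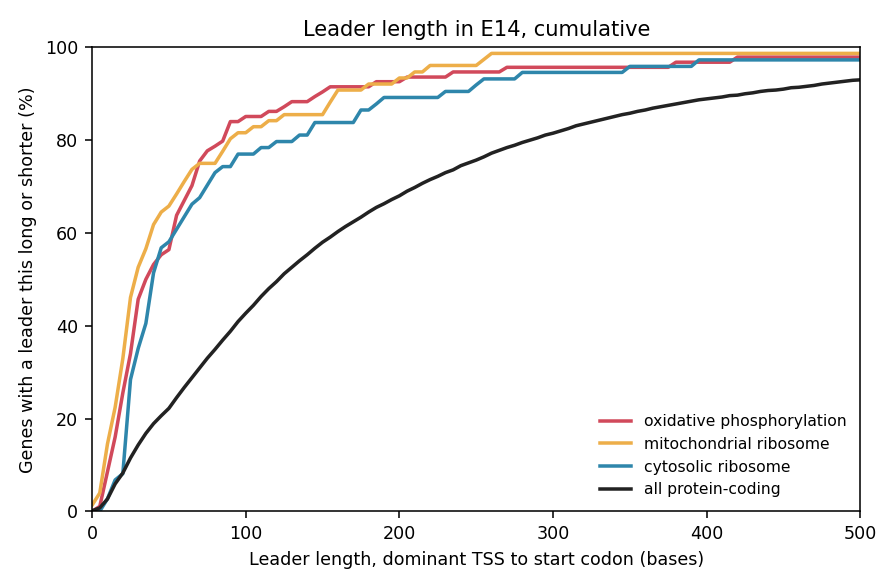
Share of genes in percent (y axis) whose leader, from E14 dominant TSS to start codon, is no longer than the length in bases on the x axis. The curve of the oxidative phosphorylation genes reaches 56.4% at 50 bases, near both ribosomal protein sets, and the curve of all protein-coding genes reaches 22.2%.

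Members that shared a start codon context had short leaders, though most members with a short leader lacked it. In 14 of 106 members with a known context (13.2%, interval 8.03 to 21) the start codon ATG was followed by GCGGC, against 2.24% of all protein-coding genes, 25.6% of mitochondrial and 0.990% of cytosolic ribosomal protein genes. The median leader of the 13 such members with a main start cluster was 14 bases, with a range from 7 to 98, and 12 of them had at most 30 bases. The other members had a median of 48 bases (n = 81), and 31 of those had at most 30. In 8 members AAG came just before the ATG, which gives the letters of the YY1 site and of the translation initiator of short 5′ UTRs (TISU), and their leaders ran from 7 to 24 bases. The contexts of 6 of these, from GENCODE transcripts, are given below with the start codon and the next 5 bases in capitals.
Ndufa6: tcggcaagATGGCGGCcgcg
Ndufa9: gggagaagATGGCGGCcgcc
Ndufs4: acaggaagATGGCGGCggtc
Ndufs6: ccggcaagATGGCGGCggtg
Ndufs7: aggccaagATGGCGGCgctg
Uqcrc1: gttagaagATGGCGGCgtcc
The A of the start codon lies on mm10 at chr15 82354228 (minus strand) in Ndufa6, with a leader of 9 bases, and at chr6 126849112 (minus) in Ndufa9, with 13 bases. It lies at chr13 114388056 (minus) in Ndufs4, with 24 bases, and at chr13 73328446 (minus) in Ndufs6, with 9 bases. In Ndufs7 it lies at chr10 80249476 (plus), with 16 bases, and in Uqcrc1 at chr9 108936719 (plus), with 12 bases. Of the 6 genes printed, 5 encode complex I subunits. The exception in length among the 13 was Sdhb, which has GCGGC after the start codon and a leader of 98 bases.

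RefSeq promoter windows on GRCm38.p6, from 250 bases before to 50 after the annotated start, were matched to 86 of the 107 members and to 16883 of 21938 protein-coding genes, and were searched on both strands. CCGGAAG, the letters of an ETS site, occurred in 25 of 86 members (29.1%, interval 20.5 to 39.4) against 12.4% of all protein-coding genes and 8.86% of all 32851 RefSeq windows. GCATGCGC, part of the NRF1 site, occurred in 12 members (14%, interval 8.17 to 22.8) against 3.84% and 2.71%. The longer NRF1 palindrome, which has GC before these letters and so contains them, occurred in 7 (8.14%) against 1.40% and 0.971%. The YY1 site, AAG followed by ATGGCGG, which overlaps the start codon context above, occurred in 6 (6.98%, interval 3.24 to 14.4) against 1.39% and 0.852%. The GC box GGGCGG (50.0%, interval 39.7 to 60.3) was near the 48.4% of protein-coding genes and above the 35.7% of all RefSeq windows. The CCAAT box CCAAT (43.0% against 38.8% and 37.4%) and the TATA box TATAAA (10.5% against 13.2% and 13.6%) were near both backgrounds. The mitochondrial ribosomal protein genes had shares of the same order, 36.2% for CCGGAAG, 11.6% for GCATGCGC and 7.25% for the YY1 site, with overlapping intervals. Cytosolic ribosomal protein genes had 35.1%, 6.76% and 4.05%, also with overlapping intervals. The backgrounds here and for the start codon context include genes without a start cluster. Backgrounds limited to genes with a start cluster were not counted.

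**Figure D3:**
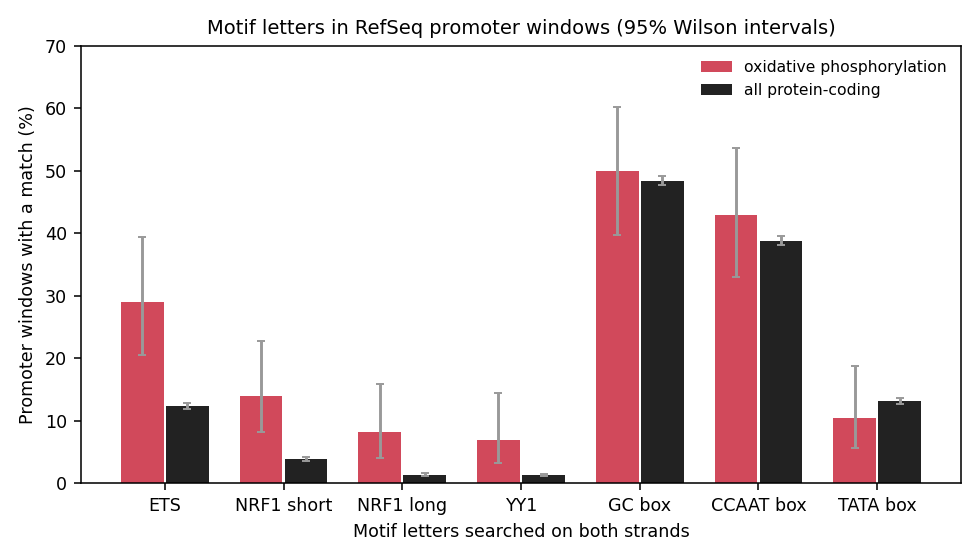
Percent of RefSeq promoter windows (y axis) holding each motif (x axis) on either strand, for 86 oxidative phosphorylation genes (red) and 16883 protein-coding genes (black), with 95% Wilson intervals as bars. The ETS, both NRF1 and the YY1 shares are higher in the red bars, while the GC box, CCAAT box and TATA box shares are close.

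Relative to the E14 dominant TSS, the first base of ETS matches had a median position of -54 (28 matches). That of the shorter NRF1 form was -62 (20 matches). Each of the 7 longer palindromes holds the shorter form on both strands and so gave a match on each. The longer form had a median of -63. YY1 matches had a median of 9, and 5 of the 6 began after the TSS. In Cox6a1, whose dominant TSS lies downstream of the start codon, the ETS match was counted at -316 and the longer NRF1 match at -462. The examples below carry 1 motif each in capitals, and Cox10 is shown once with its ETS match and once with its YY1 match.
Sdhb, ETS: ctcggagaaaCCGGAAGcggccttccactc
Cox10, ETS: gcgctgggagCCGGAAGtgacaagaggaag
Cox10, YY1: gcgggctagcAAGATGGCGGcgcccaggag
Uqcrc1, NRF1: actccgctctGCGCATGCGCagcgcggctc
Atp5k, NRF1: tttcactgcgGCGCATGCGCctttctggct
The Sdhb window is chr4:140961267-140961296 on the plus strand. The Cox10 windows are chr11:64079480-64079509 and chr11:64079432-64079461 on the minus strand. The Uqcrc1 window is chr9:108936668-108936697 on the plus strand, and that of Atp5k, a membrane subunit of the ATP synthase, is chr5:108434430-108434459 on the minus strand. A match of letters is no evidence that a factor was bound.

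An opposite-strand cluster lay within 1000 bp upstream of the dominant TSS in 37 of 98 members (37.8%, interval 28.8 to 47.6) in each line, against 24.1% of all protein-coding genes in E14. In 26 members (26.5%, interval 18.8 to 36.0, against 14.2%) it was at the start of another protein-coding gene. The corresponding E14 shares were 39.5% and 32.9% of mitochondrial and 29.3% and 14.1% of cytosolic ribosomal protein genes. Complex I subunits held 11 of these 26 and complex I assembly factors 4. The 5 pairs named next were chosen after their values were seen. Ndufb5 faced Mrpl47, a mitochondrial ribosomal protein gene, at 309 bp, and Sdhd faced Timm8b, a chaperone of the intermembrane space, at 118 bp. Ndufs1 faced Eef1b2 (an elongation factor subunit) at 51 bp, Ndufa7 faced Rps28 (a cytosolic ribosomal protein) at 108 bp, and Sdhaf2 faced Cpsf7 (a cleavage factor subunit) at 153 bp.

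The clusters of the members were nearly the same in the 3 lines. Of 203 E14 clusters of members, each counted 1 time, 0 lacked an overlapping cluster in A1 and 1 lacked one in C7. Over all protein-coding genes, 0.569% of E14 clusters lacked an A1 cluster and 0.525% a C7 cluster. In the other direction, 0 of 205 A1 clusters and 0 of 202 C7 clusters lacked an E14 cluster, against 0.778% and 0.675%. The 1 exception was a cluster 1 bp wide at position 4752410 of chromosome 7 (minus strand), 613 bp downstream of the principal start of Cox6b2, present in E14 and A1 and absent in C7. Main start clusters had the same bounds in the 3 lines for 93 of 98 members (94.9%, background 98.4%). Whether the clusters of the lines were called from shared positions is not stated in the sources used here. The part of shared calling in this overlap was not tested. In a bulk culture, fewer cells that use a start and less RNA per cell cannot be told apart.

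The dominant TSS of the main start cluster differed from E14 in 7 of 98 members in A1 (7.14%) and in 7 in C7 (7.14%). Over all protein-coding genes it differed in 19.0% in A1 and 17.1% in C7. It moved to the same side in both clones in 3 members (3.06%, background 8.53%), and in all 3 to the same base. Ndufaf1, an early assembly factor of complex I, moved 23 bp upstream, from 119662798 to 119662821 on chromosome 2. Sdha moved upstream by 1 bp, and Ndufb5, a membrane-arm subunit of complex I, moved downstream by 5 bp. At the Ndufb5 cluster nearest the principal start, the dominant TSS moved 4 bp upstream in A1 and did not move in C7. The windows of these 3, in E14 and in the clones, are given below with -1 and +1 in capitals.
Ndufaf1 in E14: tattcgggggaagcCGaatgtggggtctga
Ndufaf1 in A1 and C7: ccgggcgagaaaagTAgaaggactattcgg
Sdha in E14: cggtgcgcaagcgcAGtctgtcgctggggc
Sdha in A1 and C7: tcggtgcgcaagcgCAgtctgtcgctgggg
Ndufb5 in E14: cccttagccctcccCActtccttccgtggc
Ndufb5 in A1 and C7: agccctccccacttCCttccgtggccggtg
The Sdha step went from AG in E14 to CA in both clones, and the Ndufb5 step from CA to CC. The E14 windows are chr2:119662784-119662813 (minus strand), chr13:74350225-74350254 (minus strand) and chr3:32737042-32737071 (plus strand). Of the remaining moves, those of Ndufs3 (55 bp upstream), Cox6b2 (39 bp upstream) and Atp5g3 (27 bp upstream) were in A1 with no move in C7, and those of Atp5j (9 bp downstream), Atp5l (6 bp downstream) and Sdhaf3 (5 bp upstream) were in C7 with no move in A1. Cox7c moved in both, 40 bp upstream in A1 and 8 bp downstream in C7, the 1 member with moves to opposite sides (1.02%, background 1.03%). The median size of a move was 27 bp in A1 and 6 bp in C7, against 11 bp in each over all protein-coding genes. For 3 of the 7 moves in A1, those of Atp5g3, Cox6b2 and Cox7c, the E14 dominant TSS lay outside the bounds of the A1 cluster, which was so for 8 of 1947 moves over all protein-coding genes. The other 4 moves in A1 had a median of 14 bp.

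**Figure D4:**
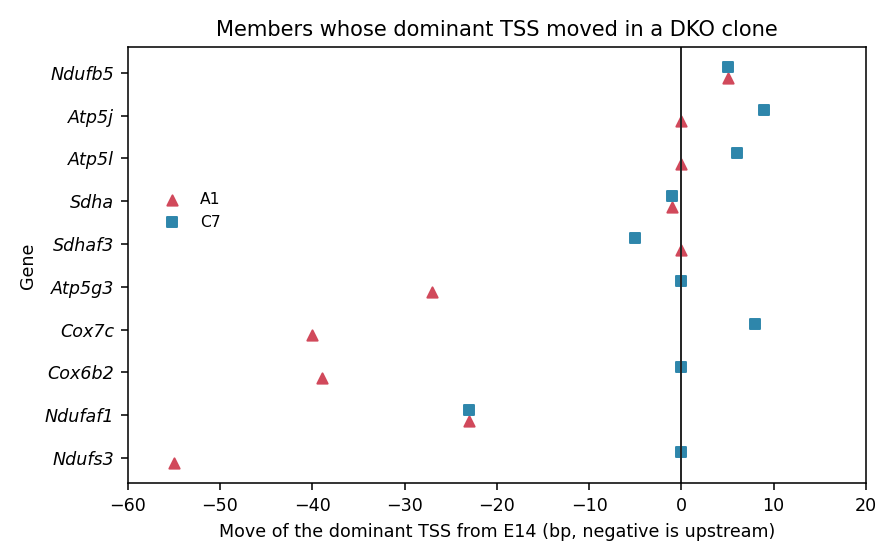
Move of the dominant TSS from its E14 position in bp (x axis, negative is upstream) in A1 (triangles) and C7 (squares), for the 10 members (y axis) with a move in either clone. Ndufaf1, Sdha and Ndufb5 have both symbols at the same value, and Cox7c has them on opposite sides of 0.

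The A1 start of Ndufs3, a core complex I subunit, lay next to 1 of the gene's 2 ETS matches. In the A1 window below, chr2:90904707-90904736 on the minus strand, CTTCCGG follows the initiator.
Ndufs3 in E14: gttctccggctactTAgtcggcacactaag
Ndufs3 in A1: tcactgcacatttcCActtccggtccgtgc
Both starts lie in the same cluster, whose interquantile width was 62 bp in E14 and A1 and 63 bp in C7.

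Promoter width changed by at least 1.5 times and 3 bp in few members. In A1, 2 became wider (background 2.83%) and 4 narrower (2.14%), and in C7, 1 became wider (2.76%) and 0 narrower (1.75%). The 1 member wider in both clones (background 1.51%) was Cox6a1, a regulatory subunit of complex IV, with 25 bp in E14 and 43 bp in both clones, and 0 were narrower in both (background 0.584%). That Cox6a1 cluster lies downstream of the start codon, and the cluster of the gene nearest the principal start had 11 bp in E14, 20 bp in A1 and 11 bp in C7. Likewise the cluster of Atp5g3 nearest the principal start, at chr2:73911239-73911370 on the minus strand, had 11 bp in E14, 17 bp in A1 and 28 bp in C7, with its dominant TSS at the same base in each line. Ndufa9 was wider in A1. The 4 narrower in A1 were Atp5g3 (28 to 3 bp), Cox6b2 (55 to 17 bp), Cox7c (61 to 27 bp) and Atp5j, a peripheral stalk gene (49 to 31 bp). For the first 3 the A1 cluster also had other bounds than the E14 cluster, in Cox7c because the region was called as 2 clusters in A1, the line with 2 merged libraries against 3 in the others. The widest Cox6b2 cluster lies in an intron downstream of the start codon. The cluster of that gene nearest the principal start had 2 bp in each line, with its dominant TSS at the same base. The part of read depth in these widths was not tested. Bounds were the same in the 3 lines for 93 of 98 members (94.9%, background 98.4%), and the interquantile width itself for 34 (34.7%, background 36.8%). Small gains were more frequent than small losses. Any gain was seen in 38 members in A1 (38.8%, background 33.4%), in 40 in C7 (40.8%, background 31.6%) and in 28 in both (28.6%, background 20.9%). Any loss was seen in 13 in A1 (background 16.1%), 13 in C7 (background 15.8%) and 7 in both (background 6.46%). The median difference from E14 was 0 bp in each clone.

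Beyond the main start region, members had 30 clusters at alternative annotated starts in E14, 29 in A1 and 28 in C7. Internal clusters, over 500 bp from every annotated start of the gene, numbered 23 in each line, with 10 in coding sequence, 9 in introns and 2 in each UTR. The 2 in the 5′ UTR are the clusters of Ndufa13 and Sdhaf1 described above, in members with no main start cluster. The internal clusters lay in 12 of 107 members (11.2%, interval 6.53 to 18.6) in each line, against 12.1% of all protein-coding genes. Of E14 members with a main start cluster 10.2% (interval 5.64 to 17.8) had one, against 21% of all protein-coding genes, 9.21% of mitochondrial and 33.7% of cytosolic ribosomal protein genes. Cox16, an assembly factor of complex IV, had the most, with 5 intronic clusters of 2 to 8 bp, from 17269 to 96081 bp into the gene. Atp5a1 had 3 in coding sequence. Cox6a1, Cox7b, Ndufa10, Ndufa13 and Ndufaf2 had 2 each. Every one of these clusters was present in all 3 lines.

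Many short transcripts annotated within these genes put clusters of coding sequence in the alternative class. All clusters in coding sequence were then counted if over 500 bp from the principal start and not near the start of another protein-coding gene. Members had 32 such clusters in 14 genes in each line, or 13.1% of the 107 members (interval 7.96 to 20.8). Over all protein-coding genes in E14 the share was 6.01%. Of E14 members with a main start cluster 12 of 98 (12.2%, interval 7.15 to 20.2) had one, near the 11% of all protein-coding genes, and against 7.89% of mitochondrial and 65.2% of cytosolic ribosomal protein genes. Atp5b alone had 12 and Cox4i1 had 4. The Atp5b clusters lay from 634 to 3129 bp downstream of the gene start, and 3 of them were near the annotated starts of Snord59a or Mir677, small RNAs encoded in the gene. These clusters were narrow, with a median interquantile width of 8 bp (interval 4 to 18). A pyrimidine-purine step was found at 3 of 32 (9.38%, interval 3.24 to 24.2), and 24 of 32 (75%) had a G before the dominant TSS. All protein-coding genes had a like pattern, with a median of 6 bp, a pyrimidine-purine step at 10.1% and a G at -1 in 75.6% of 3902 clusters. The main start of Atp5b and 3 of its coding clusters in E14 are shown, with -1 and +1 in capitals.
Atp5b, main start: accgcttcggcgctCAgtctccacccggat
Atp5b, exon cluster a: cactgccaccgggcGAatcgtggcagtcat
Atp5b, exon cluster b: ccagttcgatgaggGAttaccacccatcct
Atp5b, exon cluster c: ccaaagcccatggtGGttactctgtatttg
They lie on the plus strand at chr10:128083291-128083320, chr10:128083935-128083964, chr10:128083983-128084012 and chr10:128085505-128085534.

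**Figure D5:**
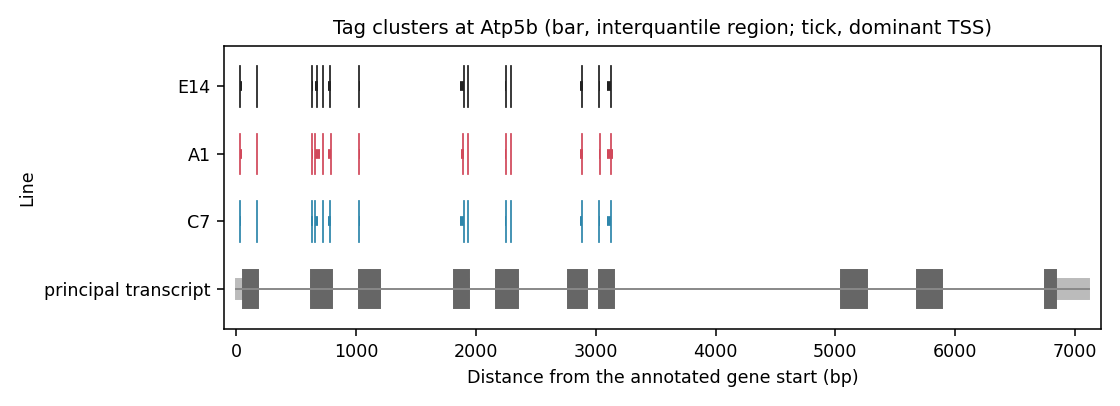
Tag clusters at Atp5b in E14, A1 and C7 (y axis), by distance in bp from the annotated gene start (x axis), above the principal transcript with coding exons as tall and UTRs as short boxes. Horizontal bars are interquantile regions and vertical ticks dominant TSSs. The 12 clusters beyond 500 bp lie over coding exons in all 3 lines, up to 3129 bp from the start in E14.

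All 32 coding clusters of E14 overlapped a cluster in both clones, as did 98.8% of such clusters over all protein-coding genes. The part of shared calling was not tested here either. Their dominant TSS differed from E14 in 18 in A1 (56.2%, background over coding clusters of all protein-coding genes 25.9%) and in 10 in C7 (31.2%, background 23.2%). Among coding clusters of cytosolic ribosomal protein genes the shares were 35.9% in A1 and 31.3% in C7 (198 clusters), and of mitochondrial ones 3 of 6 in A1 and 0 in C7. The clusters of 1 gene are not independent, and Atp5b alone holds 12 of the 32. In Cox4i1, 4 of 4 moved in A1 and 2 of 4 in C7. In Cox5b, the cluster 748 bp from the start moved 21 bp upstream in A1 and not in C7. The width changed by the rule in 1 cluster in A1 (wider, background 3.28%) and 1 in C7 (wider, background 2.56%), and 0 became narrower in either (backgrounds 1.99% and 2.32%). The wider one in A1 was in Atp5b, with 19 bp in E14 and 39 bp in A1, and the one in C7 was in Cox4i1, with 18 bp in E14 and 33 bp in C7.

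Of 43 other genes of the pathway, which carry electrons to the chain, assemble it or regulate its genes, 42 had a main start cluster in each line. Ppargc1a, the inducible coactivator of mitochondrial genes, had no cluster in any line, while its relative Ppargc1b had 1 with a width of 45 bp in each line. The median E14 width was 30.5 bp and 0 of 42 were sharp. Cycs, which encodes cytochrome c, had 32, 31 and 32 bp in E14, A1 and C7. Among the regulators, Nrf1 had 44 bp in E14 and 35 bp in both clones, Yy1 58, 59 and 58 bp, and Tfam, the packaging and transcription factor of mitochondrial DNA, 57 bp in each line. The dominant TSS moved in 2 of 42 in A1 (background 19.0%) and 3 in C7 (17.1%), with 1 to the same side in both (8.53%), Atpif1 (the ATP synthase inhibitor) by 2 bp downstream. Gabpa, the DNA-binding subunit of GABP, was the 1 gene that became narrower in A1 (background 2.14%), with 69 bp in E14 and 40 and 75 bp in the overlapping A1 and C7 clusters. The widest A1 cluster near its start was another one, with 60 bp, which would not have passed the threshold. None of the 42 became wider (background 2.83% in A1 and 2.76% in C7) or narrower in C7 (1.75%). Internal clusters were present in 3 in E14 (background 21% of genes with a main start cluster), namely Etfa, Ecsit and Yy1.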

How the data were processed

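Nuclear RNA of 8 libraries was used. Per the labels and the methods of the study, the authors mapped reads to mm10 with STAR (2.4.2a in the processing notes), kept reads with 1 alignment, merged the libraries of each line, fitted tag counts to a power law, and used CAGEr to form clusters. The score of every cluster the authors deposited is 0, so the positions were used and no value was. Reads with several alignments were not kept, so starts of genes with near-identical copies may be missing. The lowest signal kept in a cluster is not given in the sources used here, and the reads behind each cluster are unknown.

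Positions were assigned with GENCODE release M21 in Python 3.11.15 and NumPy 2.4.6, and figures were drawn with Matplotlib 3.10.9. The principal transcript was chosen by APPRIS, then basic tag, consensus coding sequence and length. Clusters of 2 lines were matched by the largest overlap on the same strand, at least 1 bp. A class was main (within 500 bp of the principal start), alternative (of another start of the gene), near a start of another gene, or internal. Assignment was tested on simulated clusters and recovered 3000 of 3000 classes. Shares have Wilson intervals and medians order-statistic intervals.

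Genes were named by role, and by the widest, the narrowest, the most internal clusters, a cluster not in all lines, no cluster, moves to the same side and width changes in both clones. Genes named beside these were chosen after their values were seen. Some items that these rules name are not reported here. The members and lists were chosen with earlier results of these data known. Alternatives were the windows, the width measure, the thresholds, the overlap and the choice of cluster.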

Additional observations from a re-analysis of the deposited data

Results flagged for a closer look

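Cox7c encodes a small subunit of complex IV. Its dominant TSS moved in opposite directions in the clones, by -40 bp (upstream) in A1 and by 8 bp (downstream) in C7. Moves to opposite sides were seen in 1 of 98 members (1.02%), near the 1.03% of all protein-coding genes. The difference between the clones was not tested, as each line is 1 merged track. The cluster compared is the widest of the gene, at chr13:86046603-86046677 on the minus strand. It spans the start codon, and its dominant TSS lies downstream of that codon. In A1 this region was called as 2 clusters. The cluster nearest the principal start, at chr13:86046768-86046846, had a width of 20 bp in all 3 lines, and its dominant TSS was at the same base in A1 as in E14 and moved by -1 bp in C7.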

How the results depend on the processing

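No paired analysis was possible because the cluster table used here merges the libraries of each line, and for the same reason no library could be left out. Of 92 alternative values, 58 stayed within the interval of the reported value or within 1.5 times the reported count. With a window of 100 bp, members with a main start cluster fell to 79.4% in each line, and internal clusters rose to 57 (E14), 58 (A1) and 56 (C7). With a window of 1000 bp, alternative clusters fell to 19 in each line. Internal clusters at least 3 bp wide numbered 12 in E14 and A1 and 11 in C7, and with protein-coding transcripts only there were 39, 39 and 38. Whole clusters had median widths of 75.5 bp in E14 and 76 bp in A1 and C7. Sharp promoters by a limit of 20 bp were 27.6% (E14), 25.5% (A1) and 26.5% (C7), and by 5 bp 2.04% in each line. At 20 bp the E14 share of all protein-coding genes was 28.3%, so the lower share of members seen at 10 bp was absent. With a reciprocal overlap of 50%, 5 clusters were present in A1 alone and 3 in E14 and C7 but not A1. The shares of all protein-coding genes given above are for an overlap of at least 1 bp. With moves of at least 10 bp counted, 5.1% moved in A1, 1.02% in C7 and 1.02% to the same side in both clones. The shares of all protein-coding genes given above are for moves of any size. A width change of at least 2 times left 0 wider in A1 and 0 in C7. CA alone was the step of 29.3%. Opposite-strand clusters within 300 bp were found in 28.6% in E14 and C7 and 27.6% in A1. In windows from 100 bases before the start, the GC box share was 37.2% and the CCAAT box share 29.1%. The cluster nearest the principal start was also compared between lines, an alternative chosen after seeing the data. By it, 1 member (1.02%) was narrower in A1 (background 1.91%) and 3 were wider in A1 (background 3.23%). A move was found in 5.10% in A1 (background 18.4%) and 7.14% in C7 (background 16.6%). Moves to the same side in both clones were found in 2.04%, with no background counted for this choice. The causes were not tested. The tracks give no read depth, and its part in cluster presence was not tested.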
